A study of Homo sapiens with 4 samples.

Results

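The genes of HSP90, its cochaperones, BAG3, the small heat shock proteins and the heat shock factors were followed in K562 cells, a human erythroleukemia cell line, after treatment with AC-1041, a thalidomide analog. The members were the gene probes that the array files name HSP90AA1, HSP90AB1, AHSA1, STIP1, CHORDC1, BAG3, HSPB1, CRYAB, HSF1 or HSF2. They were 11 of 14297 gene probes, with 2 for HSP90AA1 and 1 for each of the other genes. The cells were treated for 4 h. Each of 4 two-colour arrays took RNA of treated and of control cells at once, so that it gave a ratio of the 2. On arrays 1 and 2 the dye Cy5 marked the treated RNA, and on arrays 3 and 4 the dyes were exchanged, with Cy3 on the treated RNA. The labels call the control cells untreated and the methods name a DMSO control, and the labels give no dose. K562 is 1 leukemic line, and no other line was on these arrays.

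HSP90 is an abundant chaperone of the cytosol that binds partly folded client proteins, among them kinases and hormone receptors. HSP90AA1 encodes its stress-inducible form and HSP90AB1 the form made at all times. Cochaperones set the pace of its cycle: STIP1 hands clients over from HSP70, AHSA1 stimulates the ATPase of HSP90, and CHORDC1 binds its nucleotide domain. BAG3 releases clients from HSP70 and links it to small heat shock proteins and to autophagy. HSPB1 and CRYAB are such small proteins, which hold unfolded chains without ATP. HSF1 is the main transcription factor of the heat shock response, and HSF2 is a related factor. Heat shock factors bind repeated GAA and TTC units, called heat shock elements, in the promoters of many of these genes.

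The RefSeq promoter windows of GRCh38.p14, from 250 bases before to 50 bases after each start site, were searched for these letters. The letters searched were GAANNTTC and TTCNNGAA, each its own reverse complement, and the longer forms in which such a pair is followed by NN and a further GAA or TTC, in alternation. The 2 longer forms are reverse complements of each other and contain the short ones. Windows were found for 8 of the 10 genes, with 14 windows in all, some of which overlap. CRYAB and HSF1 had no entry. A short form lay in a window of 5 genes (HSP90AA1, HSP90AB1, STIP1, CHORDC1 and HSPB1), in 5 of the 14 member windows (35.7%) against 13.5% of 35116 windows in the whole table. A long form lay in a window of 3 genes (HSP90AA1, HSP90AB1 and CHORDC1), in 21.4% of the member windows against 0.49% of all windows. The stretches before the start site are shown to set 3 promoters with the long form beside that of HSPB1, with a short form alone, and that of BAG3, with none. Capitals mark the GAA and TTC letters of each match within the stretch shown.
HSP90AA1 promoter, chr14:102087045-102087164, minus strand: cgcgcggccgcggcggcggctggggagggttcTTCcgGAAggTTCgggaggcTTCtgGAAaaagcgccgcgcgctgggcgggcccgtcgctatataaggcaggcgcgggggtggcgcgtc
HSP90AB1 promoter, chr6:44247763-44247942, plus strand: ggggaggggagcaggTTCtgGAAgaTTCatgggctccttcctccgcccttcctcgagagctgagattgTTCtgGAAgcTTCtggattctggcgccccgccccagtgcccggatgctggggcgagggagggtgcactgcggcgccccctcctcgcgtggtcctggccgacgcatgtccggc
CHORDC1 promoter, chr11:90223050-90223169, minus strand: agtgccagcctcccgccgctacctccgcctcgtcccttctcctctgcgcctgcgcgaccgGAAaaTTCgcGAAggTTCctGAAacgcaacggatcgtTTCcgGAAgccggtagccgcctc
HSPB1 promoter, chr7:76302473-76302672, plus strand: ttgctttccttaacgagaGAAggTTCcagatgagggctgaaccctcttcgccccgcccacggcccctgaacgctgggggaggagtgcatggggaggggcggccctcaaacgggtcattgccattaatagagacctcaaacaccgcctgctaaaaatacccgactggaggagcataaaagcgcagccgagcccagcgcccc
BAG3 promoter, chr10:119651260-119651379, plus strand: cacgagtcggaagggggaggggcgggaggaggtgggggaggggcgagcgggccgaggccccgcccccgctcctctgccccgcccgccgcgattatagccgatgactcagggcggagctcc

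The long form began 88 bases before the start of HSP90AA1, and 165 and 112 bases before that of HSP90AB1. In CHORDC1 the units overlapped in a row, with long forms beginning 60, 55 and 50 bases before the start. A further short form of CHORDC1 began 205 bases before the start, outside the stretch shown. The match of HSPB1 began 182 bases before its start, and that of STIP1 lay 14 bases after it. No match lay in the windows of BAG3, AHSA1 or HSF2, which says only that these letters were not in them. Binding of a factor was not measured.

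No member spot was saturated, and for all 11 probes both channels of every array lay well above background. They were read from a limma fit over 8852 tested probes with a treatment and a dye term. Of the 10 genes, 6 were called higher after treatment, with an adjusted p below 0.05 (HSP90AA1, HSP90AB1, CHORDC1, BAG3, CRYAB and HSF2), none was lower, and 4 did not pass (AHSA1, STIP1, HSPB1 and HSF1). Over all tested probes 23.2% were called higher and 13.1% lower. The median log2 ratio of treated to control was 0.32 over the 10 genes and 0.01 over all tested probes. The ratios differed between arrays, and only HSP90AA1 (by its brighter probe), STIP1, BAG3 and HSF1 were above 0 on all 4 arrays, against 15.4% of all tested probes, and none was below 0 on all of them, against 9.91%. Among these, HSP90AA1 and BAG3 were both above 0 on every array and called higher, against 12.9% of all tested probes. The ratios are relative to all genes on the array. Since bulk RNA was measured, more cells expressing a gene and more of its RNA per cell cannot be told apart.

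The 4 arrays shared 1 slide and 1 scan day. Over all tested probes, arrays of the same dye orientation correlated at 0.81 (arrays 1 and 2) and 0.94 (arrays 3 and 4), and arrays of opposite orientation at -0.28 to -0.11. The dye term passed an adjusted p of 0.05 for 57.5% of tested probes and for 5 of the 11 member probes. The SD given for each gene is over the arrays with a value, while the SE and adjusted p come from limma after the dye term and rest on arrays of the same dye. Which of the 4 collected RNA samples went on which array is not stated, so the arrays were taken as 4 replicates and the p-values measure only the spread between them. The exact two-sided sign-flip permutation test over the arrays cannot go below p = 0.125 with 4 values or p = 0.25 with 3. The labelled line was checked by its erythroid markers, of which 9 of 11 were well above background in all 8 channels, against 0 of 3 fibroblast, 1 of 4 epithelial, 1 of 4 monocyte and 2 of 6 lymphoid markers.

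**Figure D1:**
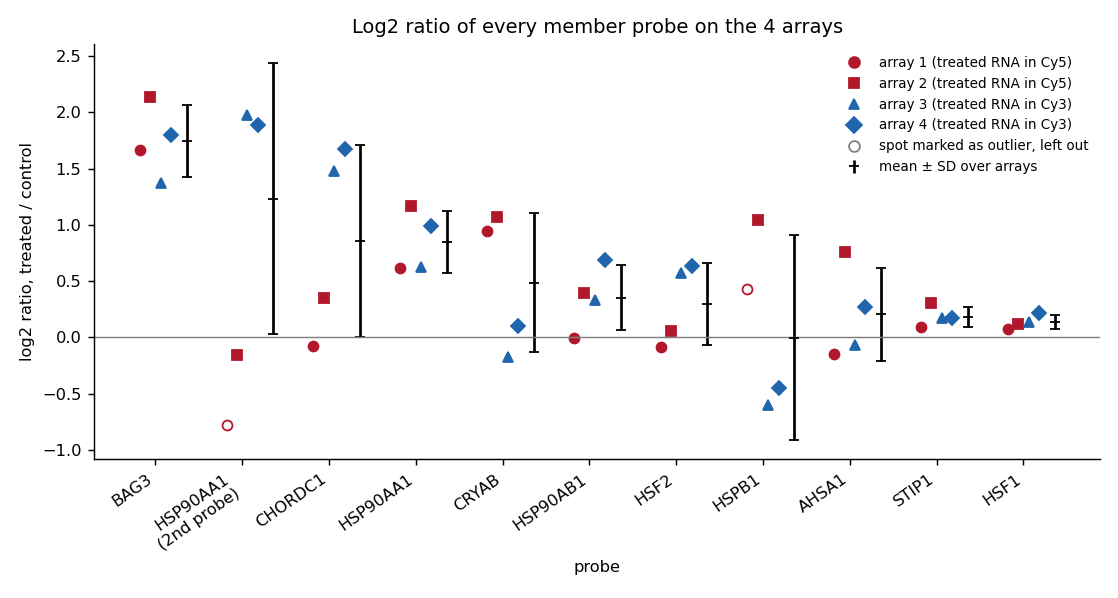
Log2 ratio of treated to control cells (vertical axis) of the 11 member probes (horizontal axis) on each array, in red where the treated RNA carried Cy5 and in blue where it carried Cy3, with open symbols for spots left out and a black bar for the mean ± SD over arrays. The 4 symbols of BAG3 lie from 1.37 to 2.14, while those of CHORDC1 and CRYAB separate by dye.

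BAG3 had the highest ratio of the 10 genes. Its log2 ratio was 1.67, 2.14, 1.37 and 1.80 on arrays 1 to 4. All values lay far above 0, and the arrays of the 2 dye orientations overlapped. Its normalized intensity in control cells was 7584, 6349, 8575 and 9374 on arrays 1 to 4, and in treated cells 24134, 28000, 22169 and 32725. Every treated channel was thus brighter than every control channel. The fit gave a treatment value of 1.75 ± 0.32 on the log2 scale (SD, n = 4 arrays; SE 0.10), a 3.35-fold increase, at an adjusted p of 3.8e-05. It ranked 14 among the 8852 probes from the highest ratio down. The dye term had an adjusted p of 0.21. The probe, A_23_P52552, lies on chr10:121426962-121427021 of hg18, the build of the probe positions in the files, and no annotation of that build was used here.

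HSP90AA1 gave a smaller increase. By its brighter probe, A_23_P162874, the log2 ratio was 0.61, 1.17, 0.62 and 0.99 on arrays 1 to 4. Values above 0 were seen in both orientations, with a mean of 0.89 where the treated RNA carried Cy5 and 0.81 where it carried Cy3. Its fitted value was 0.85 ± 0.28 (SD, n = 4 arrays; SE 0.10), or 1.80-fold, with an adjusted p of 0.00076. The second probe, A_24_P145377, was marked as an outlier on array 1 and had log2 ratios of -0.16, 1.98 and 1.88 on arrays 2 to 4. It was thus high only on the arrays with the treated RNA in Cy3. Its fitted log2 ratio was 0.89 (SE 0.08, adjusted p 0.00044), and its dye term had an adjusted p of 0.00013. The plain mean was 1.24 ± 1.21 (SD, n = 3 arrays). With outlier spots kept, the fitted value was 0.73. The difference of the first minus the second probe was 1.33, -1.35 and -0.89 on arrays 2 to 4, or -0.31 ± 1.43 (SD, n = 3 arrays), with an exact two-sided sign-flip p of 0.75. Only 1 of these 3 arrays had the treated RNA in Cy5, so this mean is not balanced over the dyes, whereas the fitted values of 0.85 and 0.89 are.

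HSP90AB1, the constitutive form, had log2 ratios of -0.01, 0.40, 0.33 and 0.69 on arrays 1 to 4. One array was level with 0 and the others were above it. Its mean was 0.35 ± 0.29 (SD, n = 4 arrays; SE 0.09), or 1.28-fold, with an adjusted p of 0.021. The call was lost without array 3 or without array 4, where the log2 ratio was 0.44 and 0.26. In both fits a smaller share of all tested probes was called too. HSP90AA1 exceeded HSP90AB1 within each array, by 0.29 to 0.77 on the log2 scale. The mean difference was 0.50 ± 0.24 (SD, n = 4 arrays), with an exact two-sided sign-flip p of 0.125, or 0.5 adjusted over the 4 pairs of genes compared. That is the smallest p 4 arrays allow, so the difference could not pass a threshold of 0.05. The 60-base probes of the 2 genes are shown because transcripts of related genes can share probe sequence.
HSP90AA1 probe A_23_P162874, chr14:101619206-101619265, minus strand: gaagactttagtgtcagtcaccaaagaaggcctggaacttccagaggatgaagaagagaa
HSP90AA1 probe A_24_P145377, chr14:101617145-101617198, minus strand: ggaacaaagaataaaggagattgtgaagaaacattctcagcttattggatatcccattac
HSP90AB1 probe A_24_P170295, chr6:44325427-44325486, plus strand: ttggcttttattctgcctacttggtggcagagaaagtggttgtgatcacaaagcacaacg

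The positions are those of hg18 in the files, where the span of the second HSP90AA1 probe is shorter than its sequence. No letters are marked in these lines. Among the 11 member probes, the longest run of letters shared with any other probe on the array was 12 to 14 bases, so no member probe was a near copy of another probe. Whether a probe also binds other transcripts was not tested.

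Of the cochaperones, CHORDC1 was higher and AHSA1 and STIP1 were not called. CHORDC1 (A_23_P138805, chr11:89574693-89574752) had log2 ratios of -0.08, 0.35, 1.48 and 1.68 on arrays 1 to 4. The 2 orientations did not overlap, and the increase came mostly from the arrays with the treated RNA in Cy3, with a mean of 1.58 against 0.14. Its fitted value was 0.86 ± 0.85 (SD, n = 4 arrays; SE 0.09), or 1.81-fold, with an adjusted p of 0.00033 for the treatment and 0.00036 for the dye. STIP1 (A_32_P92783, chr11:63727656-63728146) had log2 ratios of 0.09, 0.31, 0.17 and 0.17 on arrays 1 to 4. These values were all small and above 0. They averaged 0.19 ± 0.09 (SD, n = 4 arrays), with an adjusted p of 0.066. Its 95% confidence interval was 0.03 to 0.34, and without array 1 the log2 ratio was 0.24. AHSA1 (A_23_P117599, chr14:76998738-76998797) had log2 ratios of -0.14, 0.76, -0.07 and 0.27 on arrays 1 to 4. Array 2 was high and the arrays spread across 0. They averaged 0.20 ± 0.41 (SD, n = 4 arrays), with a 95% confidence interval of -0.11 to 0.52 and an adjusted p of 0.28. It was -0.021 without array 2 and 0.43 without array 1, where it was called higher. Without array 1, the high array 2 is the only array with the treated RNA in Cy5. The dye term then fits it exactly, and its distance from the others does not enter the error. AHSA1 and STIP1 differed by 0.02 ± 0.33 (SD, n = 4 arrays; exact two-sided sign-flip p = 1), from -0.24 to 0.45 by array.

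**Figure D2:**
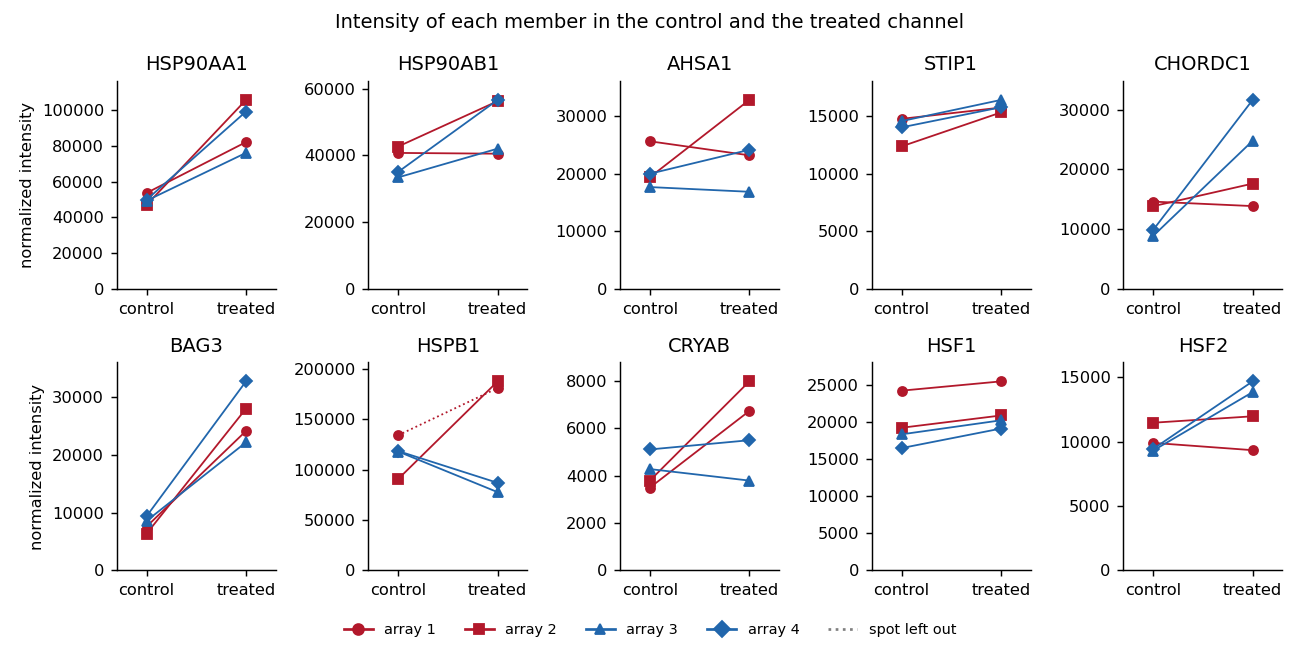
Normalized intensity (vertical axis, from 0) of each gene in the control and the treated channel, with a line for each array, red where the treated RNA carried Cy5, blue where it carried Cy3 and dotted for a spot left out. All 4 lines of BAG3 and of HSP90AA1 rise, while the lines of HSPB1 rise in red and fall in blue.

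The small heat shock proteins varied with the dye. CRYAB (A_24_P206776) had log2 ratios of 0.95, 1.07, -0.17 and 0.11 on arrays 1 to 4. It was high only where the treated RNA carried Cy5, the reverse of CHORDC1. The fit gave 0.49 ± 0.62 (SD, n = 4 arrays; SE 0.07), or 1.40-fold, with an adjusted p of 0.0019 for the treatment and 0.00078 for the dye. HSPB1 (A_24_P86537) was marked as an outlier on array 1 and had log2 ratios of 1.05, -0.60 and -0.45 on arrays 2 to 4. The sign of the value thus followed the dye. The fitted log2 ratio was 0.26 (SE 0.09), with an adjusted p of 0.052 for the treatment and 0.00042 for the dye. Its plain mean was -0.00070 ± 0.91 (SD, n = 3 arrays), which is not balanced over the dyes, since 2 of the 3 shared an orientation. HSPB1 minus CRYAB was -0.34 ± 0.28 (SD, n = 3 arrays), from -0.55 to -0.03, with an exact two-sided sign-flip p of 0.25. These 3 arrays are not balanced over the dyes either, and with median centring in place of loess the difference was -0.96. The probes of both genes are shown because they differ in base content, described with the dye term.
HSPB1 probe A_24_P86537, chr7:75771313-75771372, plus strand: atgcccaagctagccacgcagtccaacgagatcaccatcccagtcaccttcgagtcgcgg
CRYAB probe A_24_P206776, chr11:111284786-111284845, minus strand: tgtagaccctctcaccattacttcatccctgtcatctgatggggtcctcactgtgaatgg

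The heat shock factors had small ratios, and HSF2 alone passed the test. HSF1 (A_23_P253841, chr8:145509126-145509185) had log2 ratios of 0.07, 0.12, 0.14 and 0.21 on arrays 1 to 4. The values were the closest together of the 10 genes and all slightly above 0. Their mean was 0.14 ± 0.06 (SD, n = 4 arrays), with a 95% confidence interval of -0.01 to 0.28 and an adjusted p of 0.127. HSF2 (A_32_P9963, chr6:122795598-122795657) had log2 ratios of -0.08, 0.06, 0.57 and 0.64 on arrays 1 to 4. It was near 0 with the treated RNA in Cy5 and above 0 with it in Cy3. The fit gave 0.30 ± 0.36 (SD, n = 4 arrays; SE 0.07), or 1.23-fold, with an adjusted p of 0.010 for the treatment and 0.0050 for the dye. Its call was lost without array 3 or without array 4, though its log2 ratio was 0.31 and 0.28 there. A smaller share of all tested probes was called in these 2 fits as well. HSF1 minus HSF2 was -0.16 ± 0.31 (SD, n = 4 arrays; exact two-sided sign-flip p = 0.5), and was -0.27 without array 1 and -0.07 without array 3 or array 4. With an array left out, this difference is a plain mean that is not balanced over the dyes. The values here are RNA levels, and the activation of HSF1, which is known to run through its protein, was not measured.

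**Figure D3:**
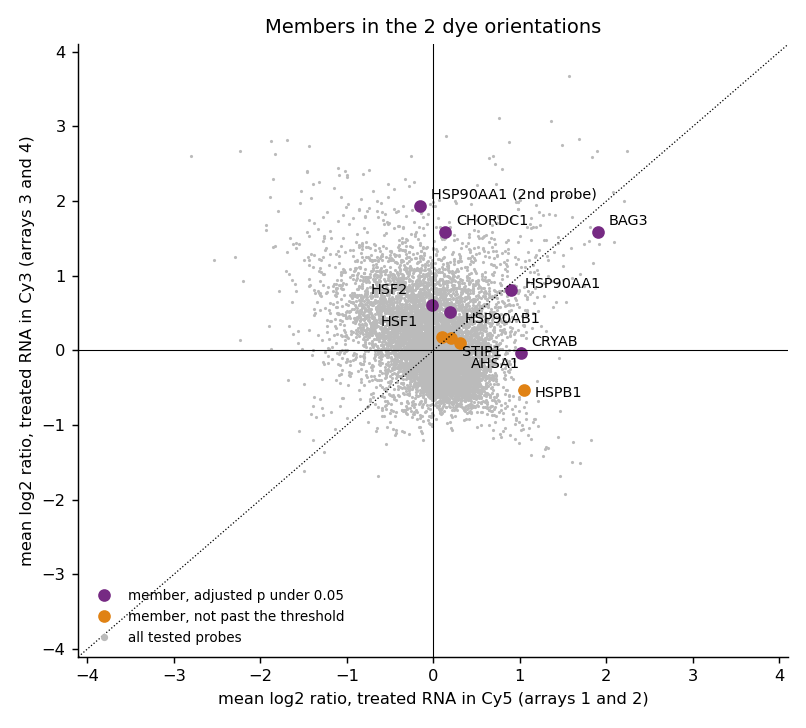
Mean log2 ratio of each member probe on arrays 1 and 2 (treated RNA in Cy5, horizontal axis) and on arrays 3 and 4 (treated RNA in Cy3, vertical axis), purple where the adjusted p was under 0.05 and orange where not, over all tested probes in grey. BAG3, at 1.91 and 1.59, and HSP90AA1, at 0.89 and 0.81, lie near the dotted diagonal of equal values, while CHORDC1, at 0.14 and 1.58, and CRYAB, at 1.01 and -0.03, lie away from it.

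The dye term moved with the letters of the probe. Across the 8852 tested probes, the dye term (positive for a higher ratio where Cy5 marked the treated RNA) showed a correlation of 0.60 (Pearson) or 0.68 (Spearman) with the percent of G and C in the probe. This is a description across probes, which share arrays and are not independent, and the cause was not tested. Several member probes lay along the same trend. Those of CHORDC1 and the second of HSP90AA1 hold 35% G and C and had dye terms of -0.72 and -1.04. Those of HSPB1 and CRYAB hold 60% and 50% and had dye terms of 0.79 and 0.52. BAG3 departed from it, with 35% G and C and a dye term of 0.16. HSF2, at 43.3%, had a dye term of -0.31, against a median of 0.03 for tested probes with over 42% to 47%. The treatment ratio itself also moved with base content, less so, with a Pearson correlation of -0.24. Of the 2102 tested probes with up to 37% G and C, 36.6% were called higher, against 6.21% of the 1853 with over 52%. Among those 2102 probes, 0.381% had a higher treatment ratio than BAG3, 3.81% than the second HSP90AA1 probe and 4.23% than CHORDC1.

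**Figure D4:**
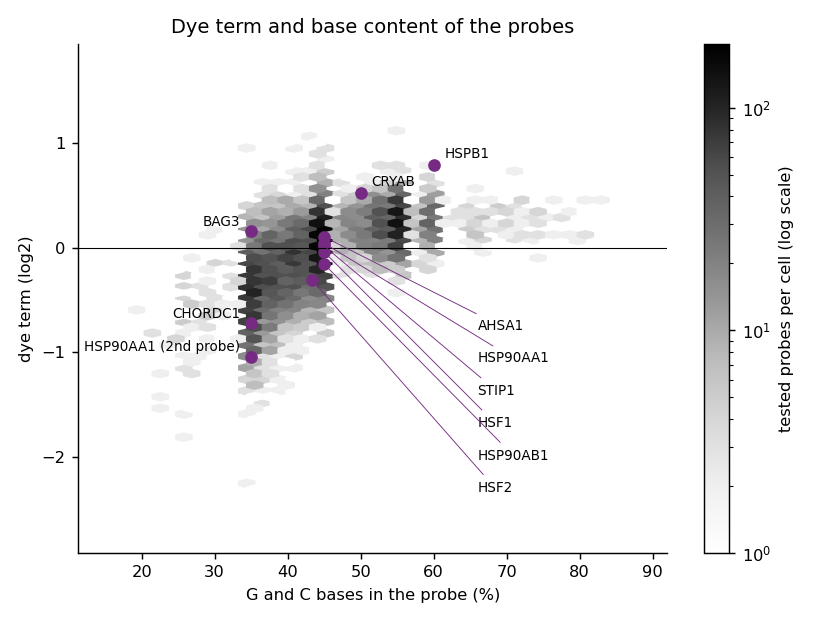
Dye term of the limma fit (vertical axis, log2) against the percent of G and C in the probe (horizontal axis), for the member probes (purple) over the number of tested probes in each cell of the plot (grey, log scale). HSPB1 and CRYAB, at 60% and 50%, lie above 0, and CHORDC1 and the second HSP90AA1 probe, at 35%, below it.

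The related genes are given by list, and those named were chosen after their values were seen. Of 22 other HSP90 cochaperones, 16 were tested, of which 3 were higher (SUGT1, TSC1 and FKBP5) and 0 lower, and their median log2 ratio was 0.01. Beside these counts, 23.2% of all tested probes were higher and 13.1% lower, and the median of all was also 0.01, so the list is not shown to differ from the array. SUGT1, a cochaperone that joins HSP90 to ubiquitin ligases and immune receptors, had log2 ratios of 0.37, 0.37, 0.67 and 0.91 on arrays 1 to 4. It was above 0 in both orientations, with a mean of 0.58 (SE 0.07), or 1.49-fold, and an adjusted p of 0.00066. TSC1 and FKBP5 were clearly above 0 only with the treated RNA in Cy3, with fitted log2 ratios of 0.54 and 0.32 (adjusted p 0.011 and 0.012). With the treated RNA in Cy5, TSC1 was at -0.70 and 0.05 and FKBP5 at -0.31 and -0.09. Neither HSP90B1 of the endoplasmic reticulum nor TRAP1 of mitochondria passed, with log2 ratios of 0.19 and -0.13. HSP90B1 ranged from -0.78 to 1.59 by array.

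Of the other BAG genes, 4 of 5 were tested and 1, BAG2, was higher, a share close to the 23.2% over all tested probes. BAG2 had log2 ratios of -0.27 and -0.24 on the arrays with the treated RNA in Cy5 and of 1.09 and 1.12 on the others. It was thus below 0 in one orientation and above 0 in the other, with a fitted value of 0.43 (adjusted p 0.0016). BAG1 stayed close to 0 on each array and averaged 0.08 ± 0.06 (SD, n = 4 arrays; adjusted p 0.357). Of 8 other small heat shock protein genes, 3 were tested: HSPB6 was higher at 0.23 (adjusted p 0.027), HSPB2 was lower at -0.19 (adjusted p 0.048), and HSPB3 was at -0.05. Of 6 other heat shock factors and their partners, 2 were tested and neither passed, HSF4 at -0.02 and HSBP1 at -0.02.

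**Figure D5:**
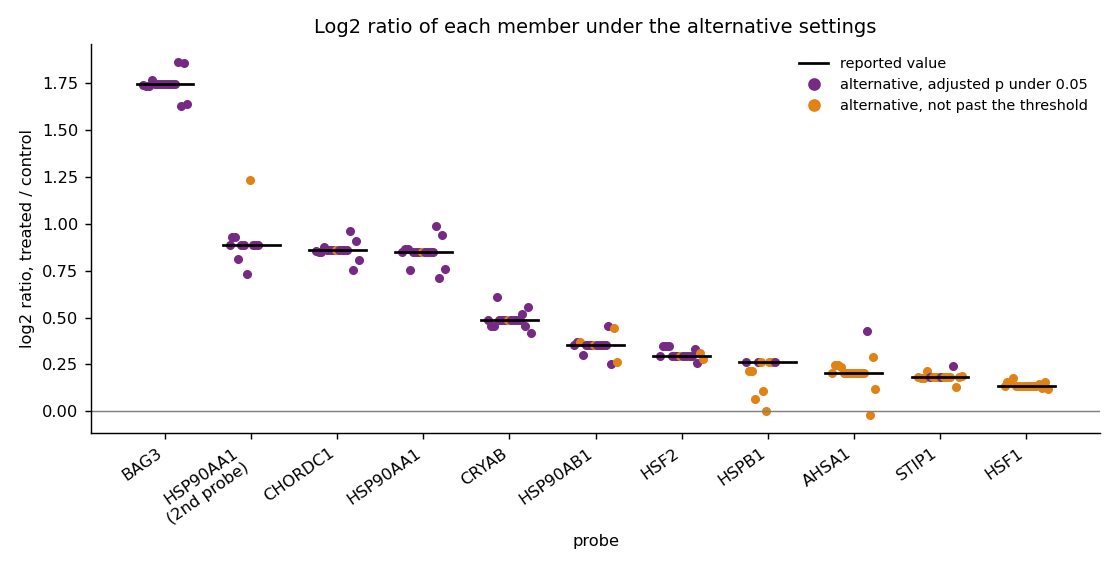
Log2 ratio of treated to control cells (vertical axis) of each member probe (horizontal axis) in the reported fit (black line) and under each alternative processing (points), purple where the adjusted p was under 0.05 and orange where it was not. BAG3 stays from 1.63 to 1.86 with all points purple, and HSF1 has none in purple.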

How the data were processed

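RNA of treated and control K562 cells was compared on 4 two-colour Agilent arrays. The deposited array files, written by Feature Extraction 9.5.1.1, give the mean intensity of each spot beside that of its surroundings, per dye and without normalization. They also give intensities that the program had already corrected and a log10 ratio of the dyes. A separate deposited table holds the authors' log10 ratios, found to read treated over control when set against the array files.

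All spots entered a normexp background correction (offset 50), each array was normalized by loess (span 0.3) with control spots at weight 0, and spots marked as outliers were left out (8.08% on array 1, from 1.57% to 2.33% on the others). Probes that 2 or more arrays showed well above background, in either channel, were fitted in limma 3.58.1 (R 4.3.3) with a dye term, with Benjamini-Hochberg adjustment over all of them at 0.05. Log2 ratios were computed from the deposited intensities. HSP90AA1 is represented by its brighter probe. Names came through the transcript accession for 12002 of 14297 probes, with the RefSeq gene table of GRCh38.p14, used for naming alone. Promoter windows and their coordinates came from a separate RefSeq table of the same build, while probe positions are on hg18. On ratios simulated for 8852 probes, the fit recovered 89% of 200 probes given a log2 change of 1, 46.5% at a change of 0.5 and 0% at 0.3. Of the calls, 5.32% were false at a change of 1 and 7% at 0.5. Only those 200 probes were changed, far fewer than were called in the data, so the adjustment was stricter in the simulation. These shares therefore do not give the power of the reported fit.

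The members and gene lists were chosen with earlier results of these data known. All members are named. List genes were to be named at an adjusted p under 0.05 and at least 1.5-fold, which none reached, so those named fall outside this rule and were chosen after their values were seen. Alternatives concerned the background, the source of signal, the normalization, the filters, the dye term, the prior, array weights, pairs of arrays, the threshold and each array left out. Slide and scan day were the same for all arrays and could not be a block. Dim and marked spots and the number of arrays limit the precision. The authors' own comparisons were not used.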

Additional observations from a re-analysis of the deposited data

How the results depend on the processing

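BAG3 was called higher under all 16 alternatives, with a log2 ratio of 1.63 to 1.86 and an adjusted p of at most 0.031, and HSF1 under none. No member was called lower under any alternative. Genes called higher numbered 6, and 7 without background subtraction, 5 with the series table, 8 with both channels above background on all arrays, 7 with an intensity-dependent prior, 4 at an adjusted p under 0.01, 1 without the dye term (BAG3) and 4 to 9 with an array left out. Without the dye term the adjusted p was 0.076 for HSP90AA1, 0.332 for CHORDC1, 0.467 for CRYAB, 0.372 for HSP90AB1 and 0.519 for HSF2, and HSPB1 turned to -0.00070. With an array left out, AHSA1 ranged from -0.021 to 0.43 and was called higher only without array 1. AHSA1 minus STIP1 then ranged from -0.12 to 0.11, as a plain mean that is not balanced over the dyes. A fit with an array left out keeps a single array in that dye orientation, which the dye term fits exactly. Its adjusted p then rests on the arrays of the other orientation and the prior. HSP90AB1 lost its call with the series table (adjusted p 0.052). HSPB1 was called without background subtraction (0.047) and with both channels above background (0.031). Its log2 ratio was however 0.07 (adjusted p 0.67) with median centring and 0.11 (adjusted p 0.47) with outlier spots kept, against 0.26. It was also called without array 1, but its ratio stayed at 0.26, since its spot on that array was already left out. Only the prior and the set of tested probes changed there. STIP1 was called with both channels above background (0.045), with the prior (0.041) and also without array 1. Over all tested probes, 2052 were higher and 1160 lower. These became 589 lower with median centring, when 79.5% of calls were higher against 63.9%, 1274 higher with both channels above background (54% of calls higher), 50 higher and 4 lower without the dye term (92.6%), 1245 and 451 at an adjusted p under 0.01, and 678 to 2627 higher and 197 to 1509 lower with an array left out. The causes were not tested. A replicate block between groups could not be fitted, since there is 1 group of arrays and each ratio already pairs the 2 RNAs of an array. Averaging arrays as dye-swap pairs gave 6 genes higher in both pairings. HSPB1 was not tested in these pairings, nor with any array but array 1 left out, since its array 1 spot was missing. The counts of those settings cover the other genes. Slide and scan date were not run as a block, since all arrays share them.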

Other observations

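The genes whose log2 ratios over the 4 arrays lay nearest to those of BAG3 were PKNOX1, DDIT3 and JUN, by Euclidean distance among 7945 tested genes outside the lists. PKNOX1, a homeobox transcription factor, was at a distance of 0.18, with log2 ratios of 1.57, 2.05, 1.49 and 1.81 on arrays 1 to 4. DDIT3, a transcription factor known from the unfolded protein response, was at 0.37, with 1.53, 2.07, 1.44 and 1.48. JUN, a subunit of the transcription factor AP-1, was at 0.37, with 1.87, 2.30, 1.36 and 1.53. All 3 were above 1 on every array, as BAG3 was, which follows from their choice by nearness to it. The likeness is a description over 4 arrays of the same slide.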
